A study of Gallus gallus with 28 samples.

Results

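Of 11207 genes counted in the anterior preoptic hypothalamus of broiler chicks, 30 met a rule for genes lower in all 6 libraries taken after lipopolysaccharide (LPS) than in all 6 unchallenged libraries. The genes were chosen by their own LPS and t0 values. The rule asked for a mean of at least 5 CPM, which is a count divided by the library's total and multiplied by 1000000, in the unchallenged (t0) libraries, for a difference of -0.4 or lower between the mean log2(CPM + 1) of the LPS and of the t0 libraries, and for no overlap. It left 30 of the 7196 genes that met the t0 minimum. Since these values made the choice, they are given as a description. A test across all genes, given below, covers the same contrast, and nothing is read from how many members pass it.

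The anterior preoptic hypothalamus holds neurons that sense and set body temperature. LPS, a component of the wall of Gram-negative bacteria, is recognised by Toll-like receptors of innate immune cells, which release cytokines, and in the preoptic region prostaglandins formed in response act on neurons that control heat production, the route of fever in mammals. The genes described here are transcripts that were present at t0 and scarcer 6 h after LPS.

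The chicks were Cobb broilers of Gallus gallus, 10 days old. None was heat conditioned, and their parents either were (conditioned lineage) or were not (non-conditioned lineage). Per the protocol attached to the methylation samples of the series, conditioning meant eggs held at 39.5 °C for 12 h a day on embryonic days 7 to 16, against 37.8 °C. Each lineage gave 3 libraries at t0, 3 after 6 h at 36 °C instead of 30 °C, and 3 at 6 h after LPS was injected into the third ventricle. No library came from chicks injected without LPS or kept for 6 h without a challenge, so LPS cannot be told apart from injection, handling and elapsed time. Nothing in the labels says that the 3 libraries of a group came from separate chicks, so p-values measure the spread between libraries, which may be in part technical. The tissue was lysed whole. In such bulk samples fewer cells of a type and less RNA per cell cannot be told apart.

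The 18 RNA libraries held 828424 to 4589179 counts. At t0 depth went with lineage, since the non-conditioned libraries held 3379626 to 4589179 counts and the conditioned ones 828424 to 1422688. Conditioned t0 libraries 2 and 3 stood apart from the other t0 libraries in an earlier look at these data. The number of genes meeting the rule and the conditioned lineage's median LPS and heat differences are given with and without them. Without them too few conditioned t0 libraries remain to measure the spread in that group. For members passing the LPS test on the lineage average and in the conditioned lineage, only the direction of the change is therefore given. The name column of the counts table repeats the Ensembl identifier, and the reference at hand listed 0 Ensembl identifiers for its 25635 genes, so the 30 genes are given by Ensembl identifier and no function can be stated for any of them. For the same reason the tissue and its cell types were not checked against markers.

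The members are not equally firm. When the counts were scaled by TMM, a normalization that allows for a few genes taking a larger part of a library, the same rule kept 22 genes, 19 of them among the 30. With the authors' own factors it kept 31, of which 22 were among the 30. The 19 were members under all 3 scalings, and 8 were members under column sums alone. These 8 were ENSGALG00000021658.4, ENSGALG00000002988.6, ENSGALG00000023359.3, ENSGALG00000030845.1, ENSGALG00000004530.5, ENSGALG00000003065.5, ENSGALG00000045578.1 and ENSGALG00000046656.1. Leaving out a library loosens the demand for no overlap, and then 37 to 55 genes met the rule. The number passed 1.5 times the original without non-conditioned t0 library 1 (55), conditioned t0 library 1 (54) or 3 (55), non-conditioned LPS library 3 (50), or conditioned LPS library 1 (48) or 2 (49). Of the 30 genes 28 met the rule in every such run. Leaving out a library cannot bring overlap into a member, so this number was nearly fixed and says little on firmness. Without conditioned t0 libraries 2 and 3 together 104 genes met it, 26 of them among the 30.

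The falls ran from -2.08 to -0.42 on the log2(CPM + 1) scale, with a median of -0.79, beside a median of -0.03 over the 7196 genes. By this measure 11 of the 30 fell at least 2-fold. The separation of the libraries was narrow in most. The lowest t0 library exceeded the highest LPS library by a factor of 1.01 to 2.32, with a median of 1.06, and by 1.5 or more in 3 genes, ENSGALG00000001177.5, ENSGALG00000003879.5 and ENSGALG00000027960.2.

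**Figure D1:**
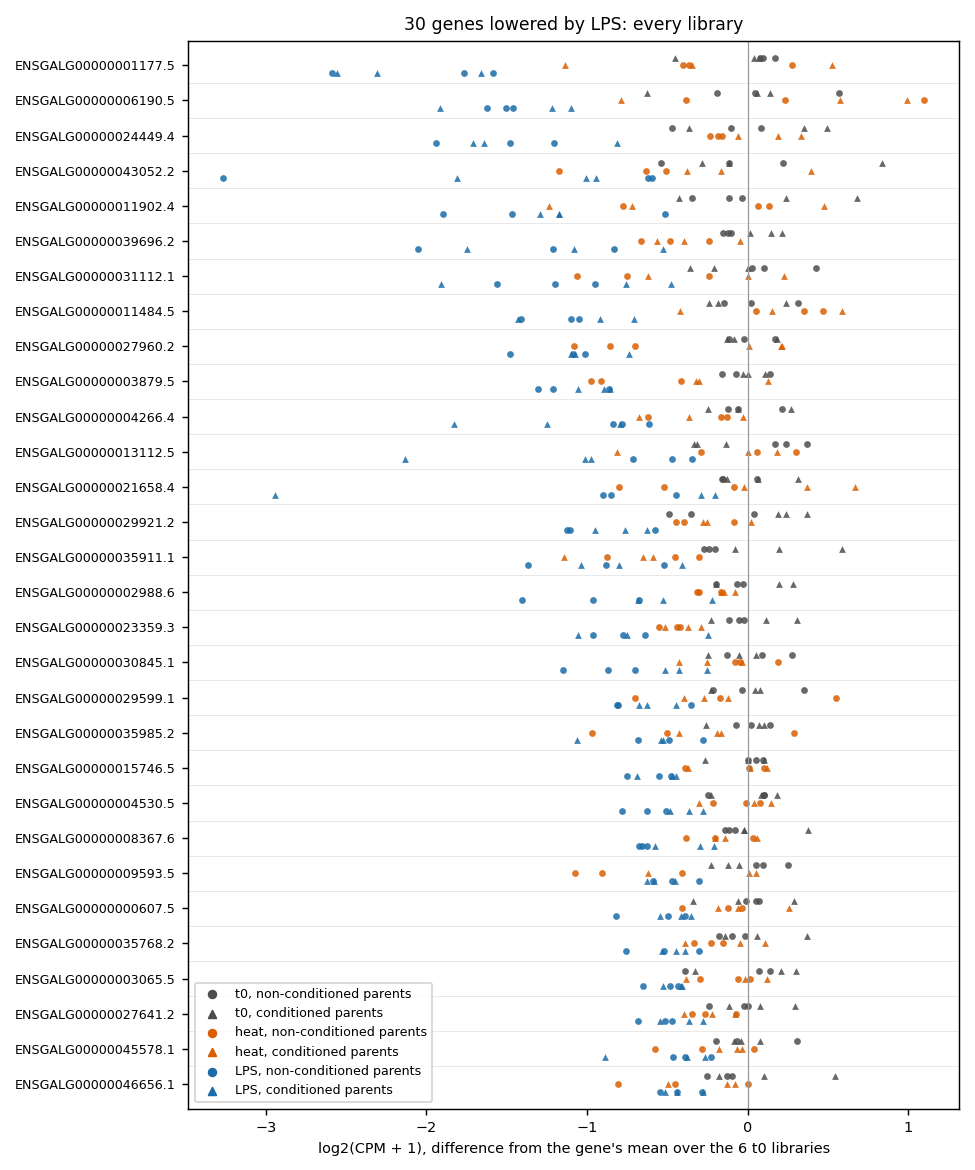
Every library of the 30 genes, as the difference of log2(CPM + 1) from the gene's own mean over the 6 t0 libraries (x axis), with 1 row per gene, ordered from the largest to the smallest fall. Circles are non-conditioned and triangles conditioned parents, grey is t0, orange heat and blue LPS. The blue points lie left of the grey ones in every row, which the rule required. Of the 180 orange points, not used by the rule, 125 lie right of the highest blue point of their row and 75 left of the lowest grey point. The rule acted on both of those bounds, so these numbers are a description.

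ENSGALG00000001177.5 had the largest fall and the widest gap. At t0 it stood at 33.96, 31.8 and 32.3 CPM in the non-conditioned and at 30.9, 31.7 and 21.7 CPM in the conditioned libraries. After LPS the values were 4.18, 8.15 and 9.38 CPM, and 5.28, 4.29 and 8.82 CPM. Every LPS library lay under 10 CPM and every t0 library above 20 CPM, so that LPS left 22.0% of the mean t0 level. Under heat its libraries spread from 13.2 to 43.7 CPM, around the t0 values.

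ENSGALG00000024449.4 stood at 56.0, 37.7 and 49.1 CPM at t0 in the non-conditioned lineage and at 40.8, 67.6 and 74.8 CPM in the conditioned lineage. The LPS libraries held 12.997, 22.3 and 18.2 CPM, and 16.2, 15.4 and 29.6 CPM, or 35.2% of the t0 mean. The highest library at t0 and the highest after LPS were both from the conditioned lineage, and are different libraries.

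ENSGALG00000006190.5 was scarce. It went from 7.96, 9.59 and 14.2 CPM at t0 to 2.32, 2.72 and 2.60 CPM after LPS in the non-conditioned lineage, and from 5.62, 10.3 and 9.66 to 3.39, 1.71 and 3.78 CPM in the conditioned lineage. Those LPS values rest on 2 to 9 counts a library, so counting error alone is large.

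ENSGALG00000043052.2 owed part of its fall to 1 LPS library and 1 t0 library. Non-conditioned LPS library 1 held 1 count (0.464 CPM), whereas the other LPS libraries held 3.02 to 8.33 CPM. Conditioned t0 library 3 held 24.1 CPM, and the other t0 libraries 8.66 to 15.4 CPM. ENSGALG00000011902.4 ranged from 13.4 to 30.0 CPM at t0 and from 4.18 to 12.5 CPM after LPS, the highest LPS value being that of non-conditioned library 3. Neither gene had t0 and LPS libraries more than a factor of 1.07 apart at their nearest.

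ENSGALG00000039696.2 was the most abundant of the genes that fell by more than 2-fold. Its t0 libraries lay close together, at 108, 111 and 112 CPM in the non-conditioned and 122, 140 and 134 CPM in the conditioned lineage. The LPS libraries were spread wider, at 28.3, 67.4 and 51.6 CPM and at 83.3, 56.6 and 35.3 CPM. The wide spread after LPS was seen in both lineages, and still left every LPS library under 108 CPM.

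**Figure D2:**
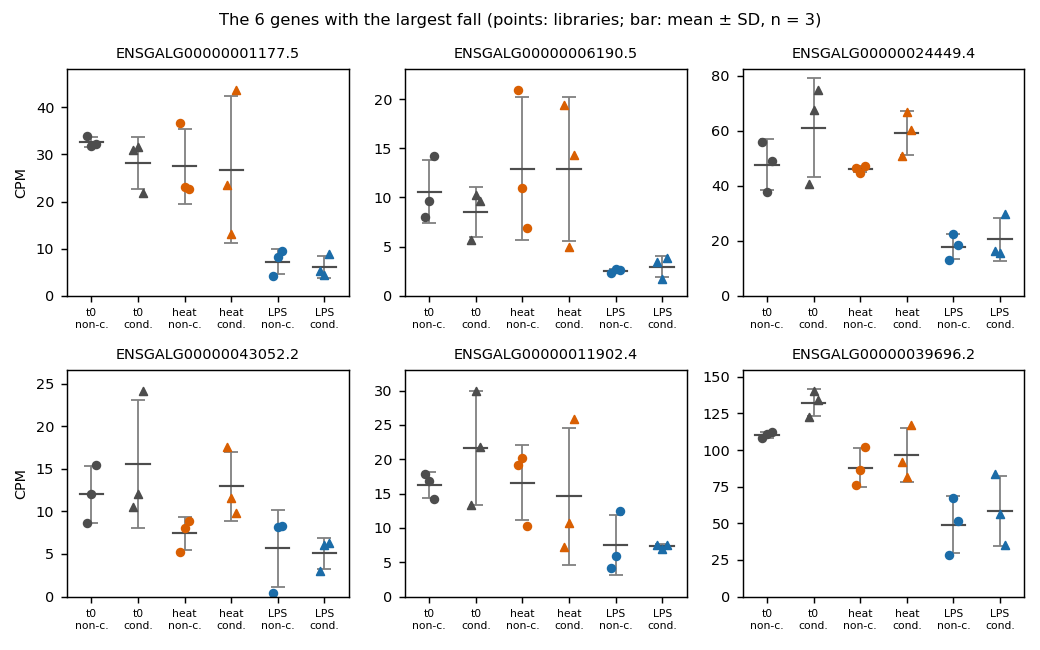
CPM of the 6 genes with the largest fall in each of the 6 groups (x axis: condition and lineage, non-c. for non-conditioned and cond. for conditioned parents). Points are libraries and bars the mean ± SD of 3 libraries; in ENSGALG00000001177.5 the LPS libraries lie between 4.18 and 9.38 CPM and the t0 libraries between 21.7 and 33.96 CPM.

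Other members with a fall of at least 2-fold were ENSGALG00000031112.1 (15.9 ± 3.24 to 6.95 ± 2.76 CPM, SD, n = 6 each), ENSGALG00000011484.5 (20.4 ± 3.53 to 9.01 ± 1.95 CPM), ENSGALG00000027960.2 (12.0 ± 1.30 to 5.19 ± 1.003 CPM), ENSGALG00000003879.5 (79.6 ± 6.21 to 38.7 ± 5.16 CPM) and ENSGALG00000004266.4 (27.1 ± 3.995 to 13.3 ± 3.79 CPM). In ENSGALG00000003879.5 both groups were tight, with 71.0 to 87.6 CPM at t0 and 31.6 to 43.5 CPM after LPS. ENSGALG00000027960.2 had t0 libraries from 10.9 to 13.7 CPM and LPS libraries from 3.65 to 6.79 CPM.

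By median, the scarcer members fell further. In the 11 members of 100 CPM or more at t0 the median fall was -0.51, and LPS left 44.3% to 73.6% of the t0 mean. In the 12 members under 30 CPM the median was -1.05, and 28.8% to 69.2% was left. In the 7 members of 30 to 100 CPM the median was -0.62, and the largest fall of all, -2.08, was among them. Counting error makes it harder for 6 libraries of a scarce gene to clear 6 others. How far the rule itself set this order was not tested. The members' median t0 level was 59.3 CPM, beside 36.2 CPM over the 7196 genes.

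The most abundant members kept most of their level. ENSGALG00000004530.5 went from 593 to 801 CPM at t0 (709 ± 88.9, SD, n = 6) to 408 to 580 CPM after LPS (498 ± 61.5), so that 70.3% was left. ENSGALG00000000607.5 went from 676 ± 94.0 to 475 ± 53.1 CPM and ENSGALG00000002988.6 from 483 ± 68.9 to 294 ± 78.1 CPM (n = 6 each). In each of these 3 the highest LPS library came within a factor of 1.02 of the lowest t0 library.

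At the scarce end, ENSGALG00000021658.4 stood at 5.88 to 8.56 CPM at t0 and at 0 to 5.67 CPM after LPS. Its 0 in conditioned LPS library 2 allows a level of up to 2.57 CPM there, the value of 3 counts, for counting error only. ENSGALG00000035985.2 went from 10.4 ± 1.11 to 6.58 ± 1.30 CPM and ENSGALG00000013112.5 from 11.1 ± 2.50 to 5.64 ± 2.36 CPM (SD, n = 6 each).

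The members just inside the threshold were ENSGALG00000027641.2 (-0.48), ENSGALG00000045578.1 (-0.43) and ENSGALG00000046656.1 (-0.42). Just outside it, with the other conditions met, lay ENSGALG00000011659.4 (-0.40, from 283 to 214 CPM), ENSGALG00000006876.6 (-0.39, from 181 to 138 CPM) and ENSGALG00000012275.5 (-0.38, from 24.7 to 18.6 CPM). In all, 42 of the 7196 genes (0.584%) had every LPS library under every t0 library, and 12 of them fell by less than the threshold. A further 481 genes reached -0.4 but their libraries overlapped.

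Summed, the 30 genes took 0.349% to 0.460% of a library's counts at t0 (0.401% ± 0.0410, SD, n = 6), 0.321% to 0.410% under heat (0.358% ± 0.0314) and 0.218% to 0.295% after LPS (0.259% ± 0.0267). The LPS libraries lay under those at t0, which the rule fixes. They also lay under the heated ones, but the low LPS values were required by the rule, so this is a description. The heated libraries overlapped those at t0. Conditioned t0 libraries 2 and 3 were the highest at t0, at 0.428% and 0.460%, and conditioned t0 library 1 the lowest. The sum weighs abundant genes most. Among these, ENSGALG00000004530.5 (709 CPM at t0), ENSGALG00000002988.6 (483 CPM) and ENSGALG00000030845.1 (349 CPM) were members under column sums alone. So were ENSGALG00000023359.3 (214 CPM), ENSGALG00000003065.5 (121 CPM) and ENSGALG00000046656.1 (118 CPM).

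**Figure D3:**
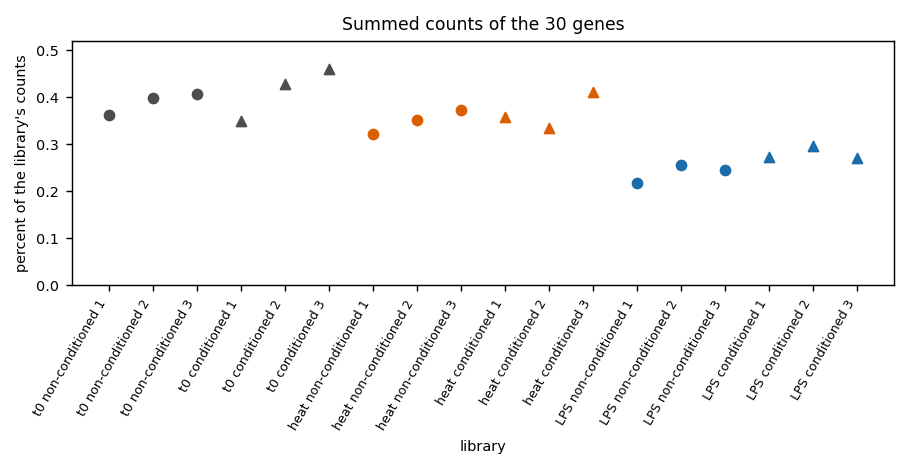
Percent of each library's counts (y axis) held by the 30 genes together, for the 18 libraries (x axis), coloured and shaped by condition and lineage as in the plot of every library. The 6 LPS libraries lie between 0.218% and 0.295%, under the lowest heated library at 0.321%, and the rule required their low values.

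A test across all genes used counts, TMM factors and edgeR's quasi-likelihood fit to all 18 libraries, with Benjamini-Hochberg adjustment over 7921 genes and a threshold of 0.05. All 30 genes were among those tested. On the average of the lineages 22 of the 30 passed as lowered by LPS, where 0.745% of all genes tested did (59 genes). The rule used this contrast, and nothing is read from the count. The 8 that did not pass had edgeR adjusted p from 0.0562 to 0.342. They were ENSGALG00000043052.2, ENSGALG00000021658.4, ENSGALG00000029599.1, ENSGALG00000035985.2, ENSGALG00000009593.5, ENSGALG00000003065.5, ENSGALG00000045578.1 and ENSGALG00000046656.1. Fewer members passed without conditioned t0 libraries 2 and 3, a fit with only conditioned t0 library 1 left in that group. Of the 59 genes 37 were not members, 35 of them because t0 and LPS libraries overlapped and 2 because their difference did not reach -0.4.

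Taken lineage by lineage, 11 members passed in the non-conditioned lineage (0.341% of all genes tested passed as lowered there) and 6 in the conditioned lineage (0.101%). The 4 that passed in both were ENSGALG00000039696.2, ENSGALG00000024449.4, ENSGALG00000003879.5 and ENSGALG00000001177.5. A further 7 passed in the non-conditioned lineage, 2 in the conditioned lineage (ENSGALG00000004266.4 and ENSGALG00000029921.2) and 17 in neither. A fall in both lineages here means libraries that do not overlap, and for most members not a test passed in each lineage. The non-conditioned number was 7 without t0 library 1 of that lineage, where 154 of 8169 genes passed in either direction. It was 4 without LPS library 1 of that lineage (165 of 8158 genes). The conditioned number was 3 when only the compared groups were fitted (66 of 6504 genes) and 10 with voom (114 of 7921 genes). It was lower without conditioned t0 libraries 2 and 3, a fit with only conditioned t0 library 1 left in that group. As a share of the genes lowered in each lineage, the members made up 40.7% of 27 and 75.0% of 8. The rule used the LPS and t0 libraries of both lineages, so these counts and shares are a description.

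The LPS difference was negative in both lineages in all 30 genes, which the rule fixes. The median was -0.71 with non-conditioned and -0.80 with conditioned parents on the log2(CPM + 1) scale, with 14 genes falling further in the former and 16 in the latter. Without conditioned t0 libraries 2 and 3 the conditioned median was -0.65. The rule bounded the t0 and LPS libraries of both lineages, which leaves out genes with a weak fall in either, so the difference of the response between lineages is a description and nothing is read from its counts. EdgeR called 0 of the 30 genes (0% of all genes tested), and DESeq2 and voom also called 0, with 0 of the 7921 genes called by either. The unadjusted edgeR p was under 0.05 in 1 member (3.33%), beside 6.10% of all genes tested. That member was ENSGALG00000030845.1. It went from 318, 369 and 420 CPM at t0 to 189, 213 and 156 CPM after LPS in the non-conditioned lineage, and from 292, 334 and 360 to 258, 291 and 242 CPM in the conditioned lineage. The conditioned LPS libraries were all higher than the non-conditioned ones, while at t0 the lineages overlapped. The responses differed, as conditioned minus non-conditioned on the log2 scale, by 0.60 ± 0.20 (SE), and this did not pass.

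**Figure D4:**
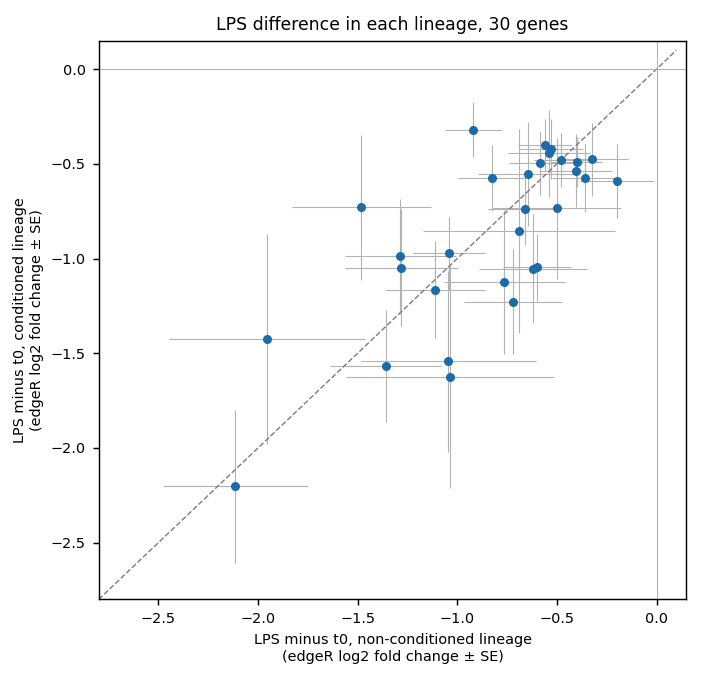
LPS minus t0 as edgeR log2 fold change ± SE in the non-conditioned (x axis) and conditioned lineage (y axis) for the 30 genes, with the line of equal change dashed. Points lie on both sides of the line; the gene with the smallest p for the difference, ENSGALG00000030845.1, is at -0.92 on the x axis and -0.32 on the y axis.

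The heated libraries were not used by the rule, but the t0 libraries they are compared with were, and were required to lie high. Differences between heat and t0 are therefore given as a description. Column sums also shifted all genes, with a median difference between heat and t0 of -0.13 for non-conditioned and 0.07 for conditioned parents over the 7196 genes, so that the TMM-scaled edgeR estimates, with medians over all genes tested of 0.01 and 0.02, are used here. The median of the 30 genes was -0.16 on the average of the lineages, -0.10 for non-conditioned and -0.23 for conditioned parents, and 27 of the 30 averages were negative. On the log2(CPM + 1) scale the conditioned median was -0.19 with all libraries and -0.02 without conditioned t0 libraries 2 and 3. EdgeR called 0 members for heat against t0 (0% of all genes tested were lowered and 0.0379% raised). DESeq2 called 0 members among 7 of the 7921 genes, and voom 0 among 2. An unadjusted edgeR p under 0.05 was seen in 6 members (20%), beside 6.64% of all genes tested. Within a lineage, every heated library lay under every t0 library in 9 members for non-conditioned parents (14.9% of the 7196 genes) and in 4 for conditioned parents (5.67%), and with TMM scaling in 5 (7.8%) and 7 (7.66%). Without conditioned t0 libraries 2 and 3, which leaves 1 t0 library in that lineage, 4 members lay under it in every conditioned heated library (20.9% of the 7196 genes) and 4 above it (26.5%).

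Within that, the genes differed in where heat left them. In 7 members every heated library lay above every LPS library (0.264% of the 7196 genes), these being ENSGALG00000001177.5, ENSGALG00000006190.5, ENSGALG00000024449.4, ENSGALG00000011484.5, ENSGALG00000029921.2, ENSGALG00000015746.5 and ENSGALG00000003065.5. The low LPS libraries were required by the rule. In ENSGALG00000024449.4 the heated libraries stood at 46.3, 44.8 and 47.2 CPM and at 50.6, 66.7 and 60.2 CPM, all inside the t0 range of 37.7 to 74.8 CPM, and the log2 fold change of heat was -0.01 ± 0.19. The top of that range was set by conditioned t0 libraries 2 and 3 (67.6 and 74.8 CPM). The other t0 libraries held 37.7 to 56.0 CPM, and heated conditioned libraries 2 and 3 lay above these. Estimates for ENSGALG00000006190.5 (0.50 ± 0.31, edgeR adjusted p = 0.82) and ENSGALG00000011484.5 (0.27 ± 0.19, edgeR adjusted p = 0.839) were above 0, opposite in sign to LPS and within the spread of the libraries.

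Other members stood nearly as low under heat as after LPS. ENSGALG00000035911.1 was at 23.6 ± 6.28 CPM at t0, 14.4 ± 3.08 under heat and 12.8 ± 3.24 after LPS (SD, n = 6 each). Its heated libraries, at 16.6, 12.1 and 18.5 CPM and at 15.0, 9.88 and 14.3 CPM, all lay under the lowest t0 library (18.9 CPM). Its heat estimate, the most negative of the 30, was -0.67 ± 0.19 and did not pass (edgeR adjusted p = 0.458, range over the alternatives 0.111 to 0.978). By lineage the heat estimate of this gene was -1.12 ± 0.28 with conditioned and -0.21 ± 0.27 with non-conditioned parents. Conditioned t0 libraries 2 and 3 held 35.1 and 26.6 CPM of it, and the other t0 libraries 18.9 to 21.8 CPM. In ENSGALG00000023359.3 heat left the level low too, with heated libraries of 145 to 174 CPM under t0 libraries of 181 to 263 CPM (-0.41 ± 0.13, edgeR adjusted p = 0.596). These 2 were the only members whose 6 heated libraries cleared all 6 t0 libraries (0.139% of the 7196 genes). With TMM scaling 1 member did (0.0697% of 7176 genes). ENSGALG00000009593.5 had on average 19.8 ± 6.64 CPM under heat and 18.8 ± 1.71 CPM after LPS, against 27.2 ± 3.38 CPM at t0. Its low heated level was that of the non-conditioned lineage, with 15.5 ± 4.15 CPM against 29.9 ± 2.31 CPM at t0 (SD, n = 3 each). In the conditioned lineage it stood at 24.2 ± 6.00 CPM under heat and 24.6 ± 1.55 CPM at t0. ENSGALG00000003879.5 stood midway, at 59.3 ± 17.3 CPM under heat. Both challenges were set against one set of t0 libraries, and the difference between heat and LPS was not tested.

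**Figure D5:**
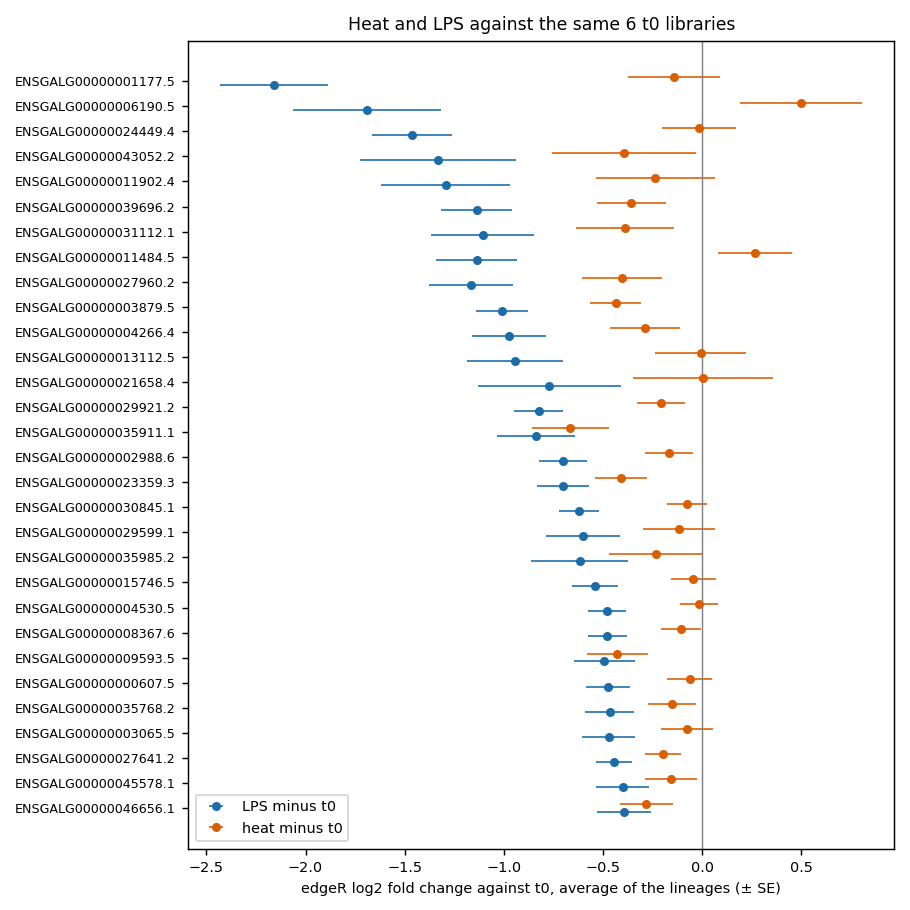
EdgeR log2 fold change ± SE against t0, averaged over the lineages, for LPS (blue) and heat (orange) in the 30 genes (rows, ordered by the fall after LPS). The heat point lies closer to 0 than the LPS point in every gene, at 0.50 for ENSGALG00000006190.5 and at -0.67 for ENSGALG00000035911.1, where heat and LPS overlap. The rule required low LPS values and used no heated library, so this order is a description.

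The comparison of lineages under heat shares no library with the rule. EdgeR called 0 members (0.0252% of all genes tested passed, all lower in the conditioned lineage). DESeq2 called 0 members among 7 of the 7921 genes, and voom 0 among 2. In 4 members (13.3%) the unadjusted edgeR p was under 0.05, as in 5.88% of all genes tested. ENSGALG00000027960.2 had the smallest p. Its heated libraries held 6.98, 5.14 and 6.16 CPM with non-conditioned and 14.1, 13.995 and 12.0 CPM with conditioned parents. The former lay under the lowest t0 library (10.9 CPM), near the LPS libraries, and the latter above it. The conditioned libraries were higher by a log2 difference of 1.08 ± 0.29 (edgeR adjusted p = 0.642, range over the alternatives 0.349 to 0.948) on 8 to 45 counts a library, and the difference of the heat response was 0.99 ± 0.40, a description since it draws on the t0 libraries. ENSGALG00000003879.5 was also lower in each heated non-conditioned library (59.4, 39.998 and 41.7 CPM) than in each conditioned one (63.4, 64.2 and 87.0 CPM), by 0.55 ± 0.19 (edgeR adjusted p = 0.763). In all, 6 members had the conditioned heated libraries above the non-conditioned ones without overlap (8.95% of the 7196 genes), and 0 had them below (2.81%). With TMM scaling the numbers were 3 (5.92% of 7176 genes) and 1 (4.97%). None of these differences passed the adjusted test.

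At t0 the lineages could be compared only with depth going along, and the part of depth was not tested. The rule bounded these libraries too, so the values are a description. EdgeR called 0 members (0% of all genes tested), with 5 (16.7%) at an unadjusted p under 0.05 beside 15.7% of all genes tested. DESeq2 called 1 member among 243 of the 7921 genes, and voom 2 among 446. Without conditioned t0 libraries 2 and 3 edgeR called 0. ENSGALG00000029921.2 had the smallest p. It stood at 86.4, 95.2 and 125 CPM with non-conditioned and at 139, 158 and 144 CPM with conditioned parents, a log2 difference of 0.64 ± 0.17 and of 0.53 without conditioned t0 libraries 2 and 3. It was called by DESeq2 and by voom, and by edgeR without conditioned t0 library 1, where 441 of 8214 genes were called. After LPS the lineages overlapped in this gene, with 55.2, 55.9 and 81.3 CPM against 78.4, 62.6 and 71.2 CPM. ENSGALG00000035911.1 was called by voom only (0.79 ± 0.21). No overlap between the lineages at t0 was seen in 4 members that were higher with conditioned parents (6.55% of the 7196 genes) and in 4 that were lower (15.2%). With TMM scaling the numbers were 4 (10.7% of 7176 genes) and 2 (9.5%). With conditioned t0 library 1 alone, 6 members lay above all non-conditioned t0 libraries (21.5% of the 7196 genes) and 13 under them (37.2%).

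The LPS libraries were likewise bounded by the rule, and their lineage differences are a description from which nothing is read. After LPS edgeR called 0 members between the lineages (0% of all genes tested). DESeq2 and voom also called 0, with 0 of the 7921 genes called by either. In 5 members (16.7%) the unadjusted edgeR p was under 0.05, beside 3.80% of all genes tested. For ENSGALG00000030845.1 the log2 difference in favour of the conditioned libraries was 0.55 ± 0.14. ENSGALG00000002988.6 held 180, 245 and 299 CPM with non-conditioned and 298, 411 and 333 CPM with conditioned parents (0.57 ± 0.17), with a narrow overlap. No overlap was seen in 3 members that were higher with conditioned parents (3.49% of the 7196 genes) and 1 that was lower (5.89%), and with TMM scaling in 3 (4.72% of 7176 genes) and 1 (4.81%). Over the 30 genes the median lineage difference, conditioned minus non-conditioned, was 0.17 after LPS, 0.16 at t0 and 0.01 under heat, beside 0.00, -0.02 and -0.00 over all genes tested. Without conditioned t0 libraries 2 and 3 the t0 median turned to -0.09, beside -0.02 over all genes tested.

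Inside groups the abundant members moved together to a degree. With group means removed, the 55 pairs among the 11 members of 100 CPM or more had a median Pearson correlation of 0.36 over the 18 libraries, and all pairs of the 1733 genes of that level a median of 0.07. Of these 11 members, only ENSGALG00000039696.2, ENSGALG00000029921.2 and ENSGALG00000027641.2 also met the rule with TMM scaling. The libraries, their depth and the scaling by column sums are common to all points, and the rule's demand for no overlap also selects on the spread inside groups, so this is a description of these libraries.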

How the data were processed

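Bulk MARS-seq, which reads 3′ ends of polyadenylated transcripts, was used on whole-tissue RNA, per the labels' protocols. The submitters' processing notes list DESeq2, HTSeq, STAR and cutadapt, and name galGal5 as the build; versions, settings, the collapse of molecular identifiers and the use of strand were not given in the sources used here, so overlapping genes and paralogs could not be judged. The deposited table holds, per the file headers, raw counts and a second block of the authors' normalized signal (counts divided by 1 factor per library), used here only for an alternative scaling. CPM is the count divided by the column sum, times 1000000. Counts were fitted with edgeR 4.0.16 in R 4.3.3 (TMM, low genes filtered by group, 1 group-means model over 18 libraries); SE is the log2 fold change divided by the root of F. DESeq2 1.42.0, voom of limma 3.58.1 and other settings were alternatives. The fit was tested on simulated data.

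The members, the gene lists and the tests were chosen with earlier results of these data known. The 25 gene lists could not be applied, since 0 identifiers had a symbol. Named are the members with the 6 largest falls, the 3 highest t0 levels, the smallest p in each lineage comparison, the 3 most negative and 3 most positive heat differences and those next to the threshold; the others were named after their values were seen. The 10 methylation samples are not analysed here. The counts of non-overlapping genes with TMM scaling, and those and the t0 lineage median without conditioned t0 libraries 2 and 3, were added after the data were seen.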

Additional observations from a re-analysis of the deposited data

How the results depend on the processing

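The number of genes meeting the rule was 30, 37 to 55 with each library left out and 104 without conditioned t0 libraries 2 and 3. Without those 2 libraries the conditioned medians were -0.65 for LPS and -0.0188 for heat. Fewer members then passed for LPS on the average and in the conditioned lineage, with 1 t0 library assumed to vary like the other groups. TMM-scaled CPM moved the non-conditioned heat median from -0.23 to -0.11. Between lineages at t0 DESeq2 called 1 member, voom 2, and fits without 1 library 0 to 1. Over fits without 1 library, members passing for LPS in the non-conditioned lineage ranged from 4 (165 of 8158 genes passed, either direction) to 14 (210 of 8216). In the conditioned lineage they were 10 with voom (114 of 7921) and 3 with only the compared groups fitted (66 of 6504). The cause was not tested, beyond the fewer libraries. No sign of a member's average LPS estimate changed in the 26 alternatives run. The rule all but fixes this, since it set every LPS library under every t0 library. Whether replicate numbers pair the libraries is not settled. Libraries of different groups with the same title number had correlations of their deviations from -0.23 to 0.25 (median 0.03). Those with different title numbers had -0.28 to 0.28 (median -0.01). Of 18 libraries, 8 correlated best with their own title number, and 6 with their own description number. Pairs with the same title number were 45 beside 90 with different ones, and for the description number 34 beside 101. Some such matches are therefore reached without any pairing. With the title number as a replicate block 25 members passed for LPS on the average (320 of 7921 genes passed in either direction). With the description number 17 did (224 of 7921). At the shallowest depth, 828424 counts, 3 counts are 3.62 CPM, which limits what the scarce members can show.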
